A study of Bos taurus with 6 samples.

Results

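The genes described here are the semaphorins, plexins, ephrins, Eph receptors, slits, Robo receptors, netrins, netrin receptors of the DCC and UNC5 families and neuritin, as measured in cultured bovine granulosa cells (GC). They were taken from the deposited table by gene symbol (SEMA3 to SEMA7, PLXN, EPHA, EPHB, EFNA, EFNB, SLIT, ROBO, NTN and UNC5 with their member letters or numbers, and DCC and NRN1). The rule found 68 of the 26773 transcript clusters, the array's unit for a gene, each with a symbol of its own. Of these, 35 encode ligands and 32 receptors, and the remaining one is neuritin. All 68 symbols were also found in the RefSeq gene table of the ARS-UCD2.0 assembly, and for 43 of them the mRNA accession in the deposited table was listed there under the same symbol.

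RNA from 6 cultures of primary GC of Bos taurus was measured on Bovine Gene 1.0 ST arrays, 1 for each culture. GC had been plated at normal density (3 cultures) or at high density (3 cultures) and were kept for 9 days without serum in the presence of FSH, IGF-1 and androstenedione, which both groups received. The preparations were pools of cells from small to medium sized follicles of many cows with an unrecorded cycle stage, so that no culture stands for an animal. The question was how the initial plating density affects the GC transcriptome.

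Signals are log2 values from the RMA procedure, and differences are given as log2 fold change, high minus normal density, tested with limma over the whole table. A gene is termed called, or said to have risen or fallen, when its fold change exceeded 1.5 in size with p and FDR below 0.05. A background level of 4.62 was taken from the 95th percentile of 82 reporter control rows of the array. Signals of different genes come from different probes and are not compared with each other. Errors of means are SD over 3 cultures, and those of fold changes are standard errors (SE). Adjusted p-values follow Benjamini and Hochberg (BH) over the whole table. A 3 against 3 comparison by exact permutation cannot reach a p under 0.1. Among the arrays, high density replicate 2 lay farther from its group than any other, with a mean Euclidean distance of 46.3 over all transcript clusters against 40.1 and 41.4 for the other high density cultures and 31.6 to 32.2 within normal density. In bulk RNA, fewer cells of a type and less RNA per cell cannot be told apart.

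The families are named for their part in the guidance of growing axons, where a ligand on one cell, or released by it, attracts or repels the process of another cell that carries the receptor. Semaphorins signal through plexins, for the secreted class together with neuropilins. Ephrins are bound to the membrane and meet Eph receptor tyrosine kinases on the neighbouring cell, so that signaling depends on cell contact and runs in both directions. Slits act on Robo receptors and netrins on DCC, neogenin and UNC5 receptors. Outside the nervous system the same families take part in vessel growth, cell sorting, adhesion and migration, and members of several of them have been described in the ovarian follicle and the corpus luteum.

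At high density 16 of the 68 genes were called, 13 of them up and 3 down. This is 23.5% of the genes, whereas 7.49% of all transcript clusters of the table were called. The share that rose was 19.1%, against 3.97% in the whole table, and the share that fell was 4.41%, against 3.51%. Called upward were NRN1, SEMA5A, SEMA3D, UNC5C, SEMA3F, EPHA3, EFNB2, PLXND1, PLXNA2, SEMA7A, SLIT3, SEMA3C and NTN4. Called downward were ROBO2, EPHA4 and PLXNB3. All 16 calls were also made with any single culture left out, high density replicate 2 included. Those of EPHA3, SLIT3 and PLXNB3 were lost when signals under the background level were raised to it. The signals of the groups did not overlap for 37 of the 68 genes, 54.4%, and the same was true of 37.3% of all transcript clusters. For 22 genes, 32.4% of the 68, the high density signals were the higher ones, against 17.8% of the whole table. For 15 genes, 22.1%, they were the lower ones, near the 19.5% of the whole table. The median log2 fold change was 0.13 over the 68 genes and 0.02 over the whole table.

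**Figure D1:**
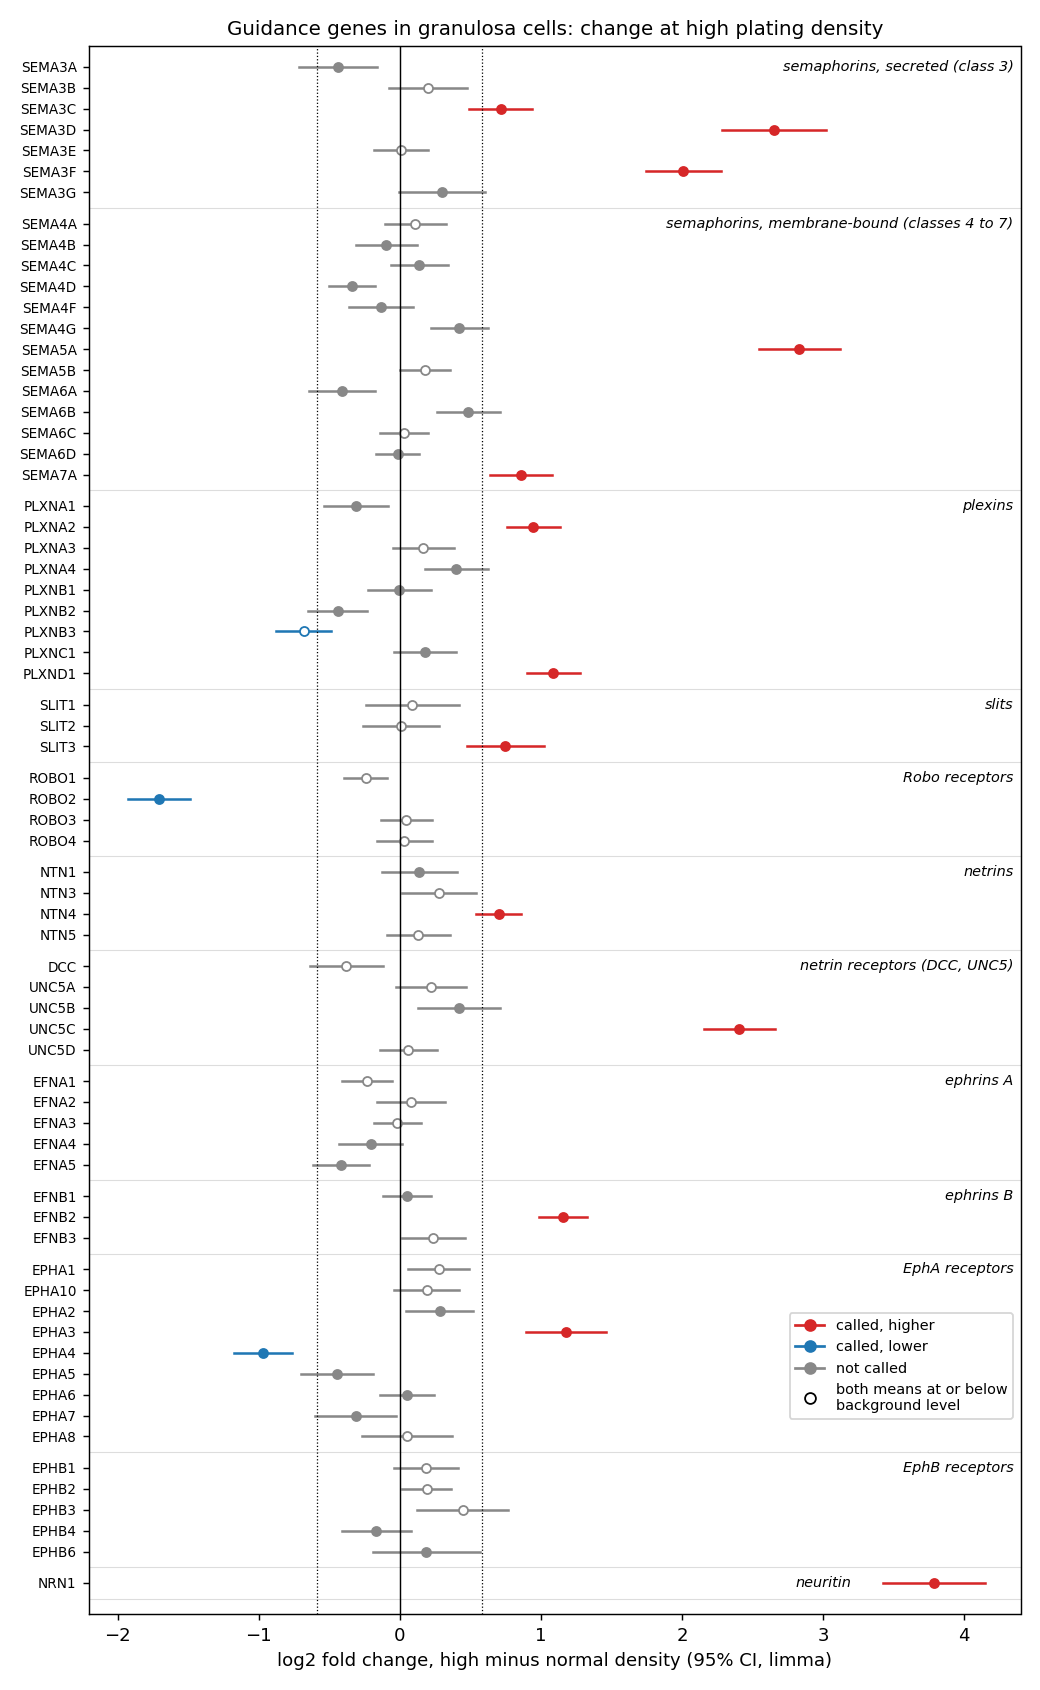
Log2 fold change (high minus normal density, x axis) of each of the 68 guidance genes, grouped by family, with 95% confidence intervals from limma. Dotted lines mark the fold change threshold of 1.5, red and blue mark called genes, and open symbols mark genes with both group means at or below the background level. The 13 called rises reach 3.79 for NRN1, and the 3 called falls reach −1.70 for ROBO2.

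The ligand calls were all rises, 8 of 35 (22.9%, against 3.97% of the whole table). The receptor calls were divided, with 4 rises (12.5%) and 3 falls (9.38%, against 3.51% of the whole table) among 32. At any fold change, 10 ligands (28.6%) passed the FDR threshold with a higher signal at high density, against 8.64% of the whole table. With a lower signal 4 passed it (11.4%), near the 10.4% of the whole table. For receptors these numbers were 5 (15.6%) and 6 (18.8%). Changes of more than 3-fold in size were found for NRN1, SEMA5A, SEMA3D, UNC5C, SEMA3F and ROBO2. Such a change was called for 0.713% of the transcript clusters on the array. Signals of 33 guidance genes were above the background level in all 6 cultures, and those of 22 were at or below it in all 6. For 27 genes both group means were at or below this level, and differences among them, whether called or not, are of weak signals.

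NRN1 (transcript cluster 12803191) encodes neuritin, a small protein anchored to the cell surface by a lipid that promotes the outgrowth of neurites. Its signals were 3.34, 3.49 and 3.21 in the normal density cultures and 7.18, 7.42 and 6.81 at high density. All 3 normal density signals were below the background level and all 3 high density signals well above it. The log2 fold change of 3.79 (SE 0.15, BH-adjusted p = 1.78e-05, limma) was the largest among the 68 genes and lay between 3.65 and 3.95 with each culture left out. NRN1 belongs to none of the ligand and receptor families and was included by name, with earlier results of these data known. Set against the background level instead of the measured normal density signal, NRN1 was at least 5.72-fold higher at high density.

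Among the secreted class 3 semaphorins 3 of 7 rose. SEMA3D (12851272), a repellent of axons that acts through neuropilins, had signals of 4.23, 4.19 and 3.87 at normal density and of 6.72, 7.04 and 6.49 at high density. Here too the normal density signals lay below the background level in every culture. Its log2 fold change was 2.66 (SE 0.16, BH-adjusted p = 6.85e-05, limma), which is at least 4.38-fold against the background level. SEMA3F (12799597), which binds neuropilin-2 in preference to neuropilin-1, was measured at 5.56, 5.68 and 5.43 at normal density and at 7.73, 7.37 and 7.60 at high density. This rise took place wholly above the background level, with a log2 fold change of 2.01 (SE 0.11, BH-adjusted p = 5.55e-05, limma). SEMA3C (12850085), known for its part in the outflow tract of the heart and in vessels, went from 6.66, 6.80 and 6.57 to 7.39, 7.52 and 7.27. The difference was smaller, 0.72 on the log2 scale (SE 0.10, BH-adjusted p = 0.00223, limma), although the groups did not overlap.

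SEMA3A, the founding member of the class and a repellent of axons and endothelial cells, was not called. Its signals were 9.73, 9.53 and 9.65 at normal density and 9.07, 9.44 and 9.08 at high density. High density replicate 2 was the culture nearest to normal density. The log2 fold change of −0.44 (95% confidence interval −0.71 to −0.16, limma's adjusted p = 0.0397) passed the FDR but not the fold change threshold, and it was −0.56 without that culture. SEMA3B, SEMA3E and SEMA3G had log2 fold changes of 0.20, 0.01 and 0.30, and only SEMA3G reached the background level in a group mean.

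Several of these genes are neighbours in the ARS-UCD2.0 gene order. SEMA3D, SEMA3A and SEMA3E follow each other with no protein-coding gene between them, and SEMA3C lies 6 protein-coding genes further on. Along this row the log2 fold changes were 2.66, −0.44, 0.01 and 0.72. SEMA3B and SEMA3F are separated by 3 protein-coding genes and had log2 fold changes of 0.20 and 2.01. The measured changes of these neighbouring genes differed. So did those of ROBO1 and ROBO2, which lie side by side and had log2 fold changes of −0.24 and −1.70. All signals of SEMA3B and SEMA3E were below the background level, as were those of ROBO1 at high density. Their small changes are of weak signals and cannot be set against those of genes above that level.

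Of the 13 membrane-bound semaphorins of classes 4 to 7, SEMA5A and SEMA7A rose and none fell. SEMA5A (12785247) is a transmembrane semaphorin with thrombospondin repeats that binds plexin B3. Its signals, 6.73, 6.90 and 6.49 at normal density, reached 9.70, 9.47 and 9.44 at high density, and no culture was near the background level. SEMA5A had a log2 fold change of 2.83 (SE 0.12, BH-adjusted p = 2.06e-05, limma). SEMA7A (12791138), held in the membrane by a lipid anchor, signals through plexin C1 and integrins with the beta 1 chain. It was measured at 6.32, 6.40 and 6.27 at normal density and 7.34, 7.03 and 7.20 at high density, which is a log2 fold change of 0.86 (SE 0.09, BH-adjusted p = 8.79e-04, limma). The remaining 11 did not meet the criteria, and their differences were at most 0.48 in size on the log2 scale. SEMA6D had signals between 10.50 and 10.59 at normal density and between 10.52 and 10.56 at high density, which is a log2 fold change of −0.01 with a 95% confidence interval from −0.17 to 0.14. Below the fold change threshold but past that of the FDR were SEMA4D (−0.34) and SEMA6A (−0.41) on one side and SEMA4G (0.42) and SEMA6B (0.48) on the other.

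**Figure D2:**
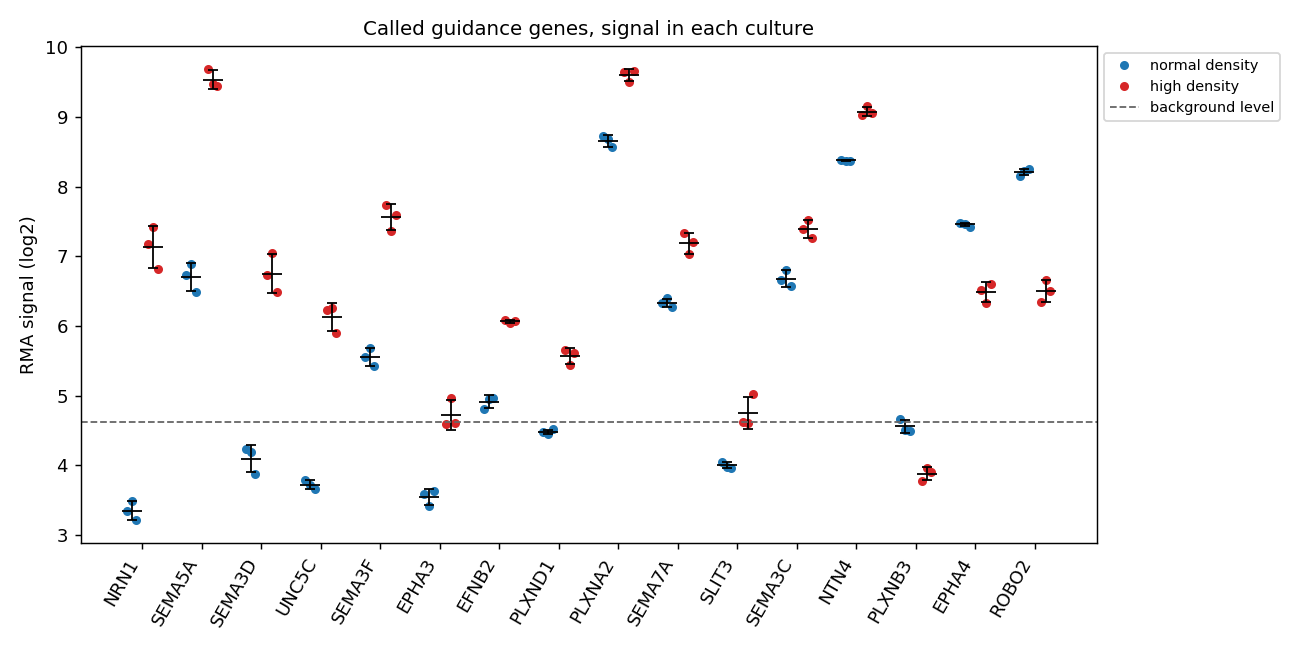
RMA signal (log2, y axis) of the 16 called guidance genes in each of the 3 normal density (blue) and 3 high density (red) cultures, ordered by fold change, with mean and SD. The dashed line is the background level of 4.62, and the means of NRN1, SEMA3D, UNC5C, PLXND1, EPHA3 and SLIT3 lie below it at normal and above it at high density, while both means of PLXNB3 lie below it.

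Plexins, the receptors of the semaphorins, include 9 genes, of which PLXNA2 and PLXND1 rose and PLXNB3 fell. PLXNA2 (12734842), a partner of neuropilins for class 3 semaphorins, had signals of 8.72, 8.69 and 8.56 at normal density and 9.65, 9.50 and 9.66 at high density. This gave a difference of 0.95 on the log2 scale (SE 0.08, BH-adjusted p = 3.04e-04, limma). PLXND1 (12797336), the receptor that SEMA3E can bind without a neuropilin and a gene well known from endothelial cells, was below the background level at normal density with 4.47, 4.45 and 4.52 and above it at high density with 5.66, 5.44 and 5.61. Its log2 fold change of 1.09 (SE 0.08, BH-adjusted p = 1.70e-04, limma) corresponds to at least 1.93-fold against the background level. PLXNB3 (12903205), the receptor of SEMA5A, was measured at 4.66, 4.51 and 4.50 at normal density and at 3.77, 3.96 and 3.90 at high density. Only normal density replicate 1 was above the background level, so that the fall of PLXNB3, 0.68 on the log2 scale (SE 0.08, BH-adjusted p = 0.00148, limma), was one between weak signals. With signals floored at the background level it was −0.01 and PLXNB3 was no longer called.

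The other 6 plexins were not called. PLXNB2 and PLXNA4 passed the FDR threshold with log2 fold changes of −0.44 and 0.40. PLXNB1, the receptor of SEMA4D, had a log2 fold change of 0.00 (95% confidence interval −0.23 to 0.22). For PLXNC1, the plexin of SEMA7A, it was 0.18 with an interval from −0.04 to 0.40, and for PLXNA1 −0.31 with an interval from −0.54 to −0.08.

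**Figure D3:**
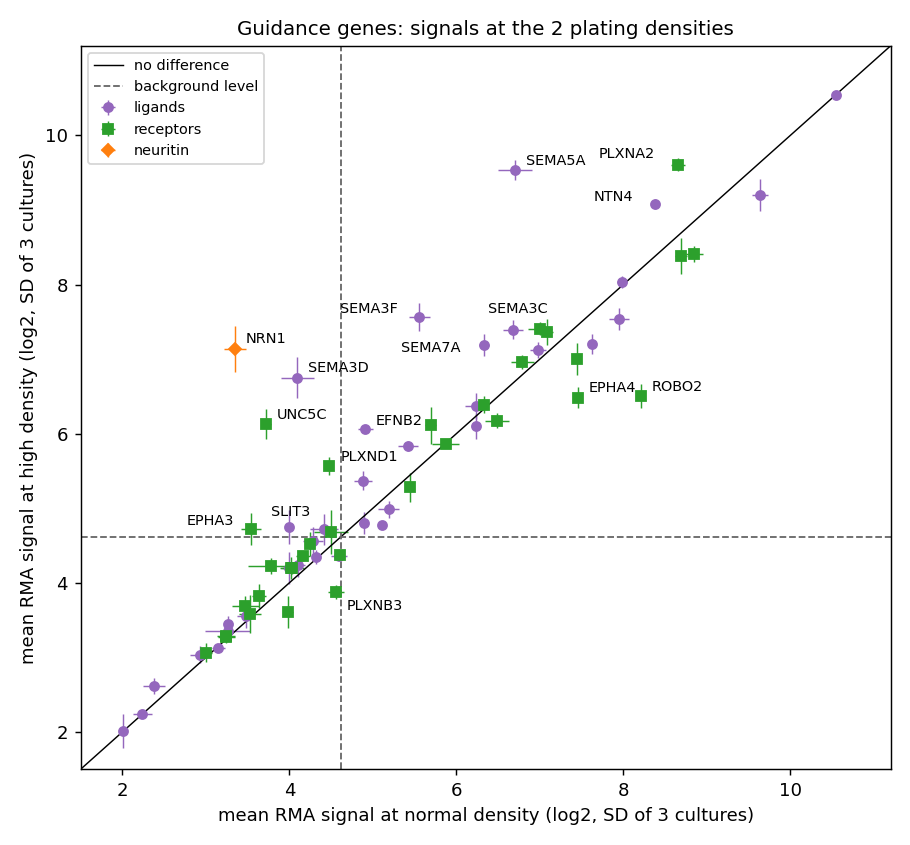
Mean RMA signal (log2) at normal density (x axis) and at high density (y axis) for the 68 guidance genes, with SD over 3 cultures, for ligands (circles), receptors (squares) and neuritin (diamond). Called genes are named, dashed lines mark the background level of 4.62, and genes on the diagonal do not differ in mean. The called ligands all lie above the diagonal, while ROBO2, EPHA4 and PLXNB3 lie below it.

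Of the slits and the Robo receptors 1 gene each was called. ROBO2 (12681539), a receptor through which slits repel growing axons, was measured at 8.16, 8.22 and 8.25 at normal density and at 6.34, 6.66 and 6.51 at high density. The groups lay far apart and above the background level. Its log2 fold change of −1.70 (SE 0.09, BH-adjusted p = 4.90e-05, limma) was the largest fall among the 68 genes. SLIT3 (12788338) had signals of 4.05, 3.98 and 3.96 at normal density and of 4.62, 4.61 and 5.02 at high density. Only high density replicate 3 exceeded the background level, and the rise of 0.75 (SE 0.12, BH-adjusted p = 0.00459, limma) comes to at least 1.09-fold against that level. The call of SLIT3 was lost with floored signals (log2 fold change 0.13), by limma's treat and with unequal variances. SLIT1 and SLIT2 were below the background level in every culture. Of the other Robo receptors ROBO3 and ROBO4 were also below it, and ROBO1, close to it at normal density with 4.58, 4.66 and 4.59, had a log2 fold change of −0.24.

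NTN4 (12867595), a netrin of basement membranes that binds laminins, rose from 8.38, 8.37 and 8.37 to 9.03, 9.15 and 9.05. The rise was 0.70 on the log2 scale (SE 0.07, BH-adjusted p = 5.42e-04, limma), with little spread at either density. NTN1, the classical secreted netrin, had a log2 fold change of 0.14 (95% confidence interval −0.13 to 0.40), and the means of NTN3 and NTN5 were below the background level at both densities.

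The netrin receptor UNC5C (12871600), which mediates repulsion from netrins, was among the strongest rises. Its signals were 3.78, 3.72 and 3.66 at normal density and 6.23, 6.26 and 5.90 at high density. All normal density signals were below the background level, and all high density signals were above it. UNC5C had a log2 fold change of 2.41 (SE 0.11, BH-adjusted p = 2.15e-05, limma), at least 2.85-fold against the background level. UNC5B, described in endothelial cells, had a log2 fold change of 0.42 in the same direction but was not called (limma's adjusted p = 0.0568). Its high density signals spread from 5.90 to 6.39. DCC, the receptor of attraction to netrins, was below the background level in all 6 cultures, as were UNC5A and UNC5D.

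EFNB2 (12710948) was the only ephrin called among 8. Ephrin-B2 is a transmembrane ligand, best known as a mark of arterial endothelium. Signals of 4.80, 4.96 and 4.97 at normal density stood against 6.08, 6.04 and 6.08 at high density. The high density cultures were nearly equal, and the log2 fold change was 1.16 (SE 0.07, BH-adjusted p = 9.44e-05, limma). EFNA5, which had signals between 7.59 and 7.66 at normal density and between 7.10 and 7.35 at high density, had a log2 fold change of −0.42 (limma's adjusted p = 0.0137) and did not reach the fold change threshold. EFNB1 had a log2 fold change of 0.05 with a 95% confidence interval from −0.12 to 0.22. The ephrin A genes EFNA1, EFNA3 and EFNA4, which follow each other in the ARS-UCD2.0 gene order, had log2 fold changes of −0.23, −0.02 and −0.21, and none was called.

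Of 14 Eph receptors EPHA4 and EPHA3 were called. EPHA4 (12781968), which binds ephrins of both classes, was measured at 7.48, 7.46 and 7.43 at normal density and at 6.52, 6.32 and 6.61 at high density. The high density signals were all lower, with a log2 fold change of −0.97 (SE 0.09, BH-adjusted p = 4.16e-04, limma). EPHA3 (12681732), a receptor of ephrin-A5, had signals of 3.59, 3.41 and 3.63 at normal density and of 4.60, 4.97 and 4.60 at high density. Only high density replicate 2 was above the background level, and the rise of 1.18 (SE 0.12, BH-adjusted p = 7.15e-04, limma) comes to at least 1.07-fold against that level. With floored signals the difference of EPHA3 was 0.12 on the log2 scale and it was no longer called, as was also the case with unequal variances. None of the 5 EphB receptors was called. EPHB4, the usual receptor of ephrin-B2, had a log2 fold change of −0.17 with a 95% confidence interval from −0.41 to 0.08. EPHB1, EPHB2 and EPHB3 were below the background level in every culture.

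EPHA5 and EPHA7 had the pattern of SEMA3A, with high density replicate 2 close to normal density. For EPHA5 the signals were 7.45, 7.43 and 7.47 at normal density and 6.89, 7.25 and 6.87 at high density, which is a log2 fold change of −0.45 (limma's adjusted p = 0.0296) that became −0.57 without replicate 2. EPHA7 was measured at 8.78, 8.67 and 8.63 and at 8.26, 8.65 and 8.22, so that the groups overlapped in this culture (log2 fold change −0.31, limma's adjusted p = 0.128). Over the 68 genes the SD was larger at high density for 47, 69.1%, and for 68.4% of all transcript clusters.

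A further 10 genes passed the FDR threshold with a fold change below 1.5. Their log2 fold changes were positive for SEMA6B, SEMA4G and PLXNA4 and negative for EPHA5, PLXNB2, SEMA3A, EFNA5, SEMA6A, SEMA4D and ROBO1. Counted at any fold change, 26 genes passed the FDR threshold, 38.2%, and 19.1% of the whole table did. Of the 68 genes, 16 (23.5%) passed it with a higher signal at high density, against 8.64% of the whole table, and 10 (14.7%) with a lower one, against 10.4%. None of the 10 uncalled genes named above passed the FDR threshold in all 6 fits that left out 1 culture. With the replicate number as a block, SEMA3A (BH-adjusted p = 0.0784, limma) and ROBO1 (BH-adjusted p = 0.111, limma) did not pass it. The largest difference among the 42 genes that did not pass the FDR threshold was that of EPHB3, 0.45 on the log2 scale, with all signals below the background level.

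The neuropilins and other genes of the same pathways were taken from lists of co-receptors, other guidance ligands and mediators inside the cell, 87 genes in all, of which 85 were found in the table as 86 transcript clusters. Of these 12 were called, 14.0% against 7.49% of the whole table. The 8 rises made up 9.30% (3.97% in the whole table), and the 4 falls made up 4.65%, near the 3.51% of the whole table. The shares lay closer together among transcript clusters with a group mean above the background level. There 10 of 62 partners were called, 16.1%, against 12.8% in the whole table. With signals floored at the background level 8 of the 12 were called, without NRP2, ITGA1, RELN and RND2. Among co-receptors and other receptors 2 of 9 rose (22.2%, against 3.97% of the whole table). NRP2, neuropilin-2, changed from 3.27, 3.40 and 3.54 to 4.16, 4.23 and 4.37, a log2 fold change of 0.85 (SE 0.10, BH-adjusted p = 0.00105, limma) with all signals below the background level. ITGA1, the integrin chain that pairs with beta 1 to bind collagen, went from 3.45, 3.31 and 3.35 to 4.96, 5.19 and 4.65, a log2 fold change of 1.56 (SE 0.14, BH-adjusted p = 3.34e-04, limma). Its normal density signals were all below the background level, against which ITGA1 was at least 1.24-fold higher. NRP1, neuropilin-1, had a log2 fold change of 0.30 and the netrin receptor neogenin, NEO1, of −0.45, both past the FDR but not the fold change threshold.

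Of 10 other guidance ligands RELN rose and RGMB fell, so that 20% were called, against 7.49% of the whole table. RELN, encoding reelin, which positions neurons in the developing brain, had signals of 2.64, 2.54 and 2.59 at normal density and 4.36, 4.45 and 4.19 at high density. The log2 fold change of 1.75 (SE 0.09, BH-adjusted p = 3.43e-05, limma) was one between signals below the background level. RGMB, a ligand of neogenin and a co-receptor of bone morphogenetic proteins, fell from 6.42, 6.22 and 6.28 to 5.83, 5.67 and 5.57, by 0.62 on the log2 scale (SE 0.09, BH-adjusted p = 0.0039, limma).

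Mediators of plexin signaling were called in 4 of 24 cases (16.7%, against 7.49% of the whole table). CRMP1, a collapsin response mediator that acts downstream of SEMA3A, rose by 1.03 on the log2 scale, RND3 by 0.86 and RHOD by 0.69, and RND2 fell by 0.65, the last from just above to below the background level. Among mediators of Eph receptors and ephrins 3 of 18 transcript clusters were called (16.7%). TIAM1, an activator of Rac, rose from 5.31, 5.40 and 5.15 to 6.91, 6.53 and 6.81, a log2 fold change of 1.46 (SE 0.12, BH-adjusted p = 2.41e-04, limma), and the adaptor GRB10 rose by 1.16. CHN1, encoding a chimaerin that turns off Rac and acts downstream of EphA4, was measured at 7.14, 7.14 and 7.23 at normal density and at 5.42, 5.78 and 5.62 at high density. Its log2 fold change of −1.56 (SE 0.10, BH-adjusted p = 1.01e-04, limma) had the same sign as that of EPHA4. Of the 25 mediators of Robo, DCC and UNC5 receptors only the tyrosine kinase gene ABL2 was called (log2 fold change −1.03). That is 4% of this list, a smaller share than the 7.49% of the whole table.

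**Figure D4:**
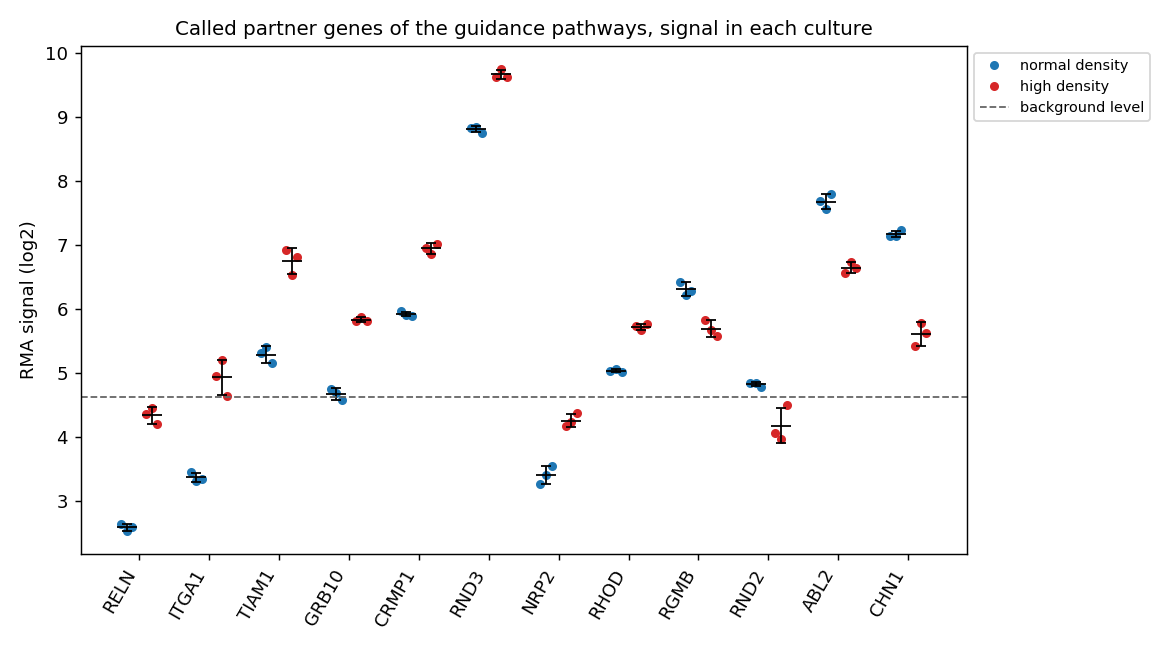
RMA signal (log2, y axis) of the 12 called partner genes of the guidance pathways in each normal density (blue) and high density (red) culture, with mean and SD. The dashed line is the background level of 4.62. TIAM1 and CRMP1 rose and CHN1 and ABL2 fell above it, whereas NRP2 and RELN stayed below it in all 6 cultures.

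The cultures were checked against markers of GC and of other cells. All 12 GC markers had a group mean above the background level. At high density 6 of them fell, among them FSHR (log2 fold change −2.21) and FOXL2 (−0.65), while 1 rose. The summed level of a list (log2) adds the unlogged signals of its genes. The brightest probes weigh most in it, and it does not measure the amount of a cell type. For the GC list it was 12.33 to 12.46 at normal density and 11.83 to 11.92 at high density. PLXND1, EFNB2 and other guidance genes are known from endothelium. Of 9 endothelial markers 7 were at or below the background level in all cultures, including PECAM1, with means of 2.66 and 2.77, and CDH5, with 2.40 and 2.36. VWF was above the background level in all 6 cultures and higher in every high density culture, but was not called. Its log2 fold change was 0.31 (limma's adjusted p = 0.0572). The marker that rose was CLDN5, by 2.81 on the log2 scale. The summed level of the endothelial list (log2) was 6.90 to 6.93 at normal density and 8.08 to 8.28 at high density. Most of this rise is that of CLDN5 alone, with means of 4.71 and 7.53, and does not describe the list as a whole. Of 12 neural and glial markers 8 were below the background level, among them RBFOX3, STMN2 and GFAP, and SNAP25 rose by 0.62. The summed level of this list was 9.50 to 9.62 at normal density and 9.61 to 9.67 at high density. Among 9 mural and stromal markers 6, LUM and DCN included, were above the background level in all 6 cultures. PDGFRB, CSPG4 and COL1A1 rose and none fell. The summed level of the mural and stromal list was 12.36 to 12.40 at normal density and 12.50 to 12.53 at high density. Of 8 theca markers INSL3 and ACTA2 rose and LHCGR, which is also a gene of GC, fell. INSL3, ACTA2, NR2F2 and PTCH1, 4 of the 8, were above the background level in all 6 cultures. The other 4, LHCGR and CYP17A1 among them, were at or below it in all 6. The summed level of the theca list was 8.84 to 8.95 at normal density and 9.88 to 10.1 at high density. All 9 leukocyte markers were below the background level, and no leukocyte or surface epithelium marker was called. The log2 fold changes of all 7 surface epithelium markers were positive, from 0.10 to 0.26. The summed level of that list was 7.23 to 7.31 at normal density and 7.38 to 7.48 at high density. The part of any of these marker lists in the changes of the guidance genes was not tested, the endothelial, theca, mural and stromal lists included.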

How the data were processed

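Total RNA of 6 GC cultures, 3 per plating density, was measured on 1 Bovine Gene 1.0 ST Array each. The deposited values are log2 signals per transcript cluster, which the authors obtained by RMA (background correction, normalization between arrays, summarization) in Expression Console. The genome build behind the annotation is not given in the sources used here. No further normalization was applied, and the table holds 0 columns of other samples. RMA compresses differences of weak signals, so that fold changes near the background level may be understated.

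Linear models without covariates were fitted to all 26773 transcript clusters using lmFit and eBayes of limma 3.58.1 (R 4.3.3), with Benjamini-Hochberg adjustment over all of them and the thresholds of the methods (fold change above 1.5, p and FDR below 0.05). The scripts were tested on simulated data. An "at least" fold change sets the mean of the brighter group against the background level, where all cultures of the dimmer group were at or below it. The precision is limited by the number of arrays. Nothing in the labels ties the replicates to separate animals, so that p-values measure the spread between these cultures.

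The guidance genes, the pathway lists and the marker lists were chosen with earlier results of these data known. Every guidance gene may be named, with values in each culture for called genes. Of the pathway lists the called genes are named, and other list genes were named after their values were seen. Alternatives were a test per gene with equal variances (for 2 groups the same as the analysis of variance that the methods name) and one with unequal variances (Welch), a trended robust prior, array weights, a replicate block, median centring, a second quantile normalization, filters on weak signals, limma's treat, an FDR of 0.01, identical transcript clusters counted once and each culture left out. A further alternative, chosen after seeing the data, set signals below the background level to that level for the fold change. Gene order was read from the RefSeq table of ARS-UCD2.0. Plots were made with Python 3.11.15 and matplotlib 3.10.9.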

Additional observations from a re-analysis of the deposited data

How the results depend on the processing

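Of the 16 called genes none changed direction under any alternative, and all 16 stayed called with each culture left out, with array weights, both rescalings, the trended robust prior, an FDR of 0.01 and the analysis of variance per gene that the methods name, which called 1611 transcript clusters in all after Benjamini-Hochberg adjustment against 2005 by limma. PLXNB3 was not tested where only genes with a group mean above the background level were kept, which left 15 calls. When limma tested whether a change exceeds the fold change threshold itself (treat), 9 guidance genes were called, 8 up and 1 down (ROBO2), with 7 partner genes and 529 transcript clusters in all. The test per gene with unequal variances (Welch) called 11 guidance genes, without EPHA3, EPHA4, SLIT3, SEMA7A and NTN4, and 838 transcript clusters in all. With signals floored at the background level for the fold change, an alternative chosen after seeing the data, 13 guidance genes were called, without EPHA3, SLIT3 and PLXNB3, whose log2 fold changes became 0.12, 0.13 and −0.01. Of the partner genes 8 were then called, and 1467 transcript clusters in all. The number of guidance genes with a group mean above the background level was 41, and between 36 and 53 with the 99th and 90th percentiles of the control rows. With each culture left out the whole table gave between 1848 and 2434 calls and the partner lists between 11 and 14. The deviations of same-numbered cultures from their group means correlated at −0.05 to 0.05 over all transcript clusters (−0.07 to 0.09 for differing numbers) and at 0.07 to 0.16 over the 68 guidance genes (−0.12 to −0.01 for differing numbers). Not every pair was above 0.1 on either set, and the labels give no pairing, so the numbers were not taken as pairs. With the replicate number as a block the same 16 guidance genes were called, 13 up and 3 down, with 12 partner genes and 2020 transcript clusters in all, while SEMA3A and ROBO1 no longer passed the FDR threshold. For genes near the background level the array limits how large a change can be measured.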
